A study of Mus musculus with 6 samples.

Results

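The microglia genes described here are 33 transcripts that mark the resident immune cells of the brain, among them surface and lineage genes, purinergic receptors, complement C1q, innate immune receptors with their adaptors, and lysosomal genes. They were picked by name as genes of this cell type, though with earlier results of these data known, and are the rows of the authors' deposited table whose symbol equals a listed gene. Of the 33 names, 32 were found among 21540 records, and 31 of these were among the 14959 records that the authors marked as tested. Fcgr3 was marked as a failed test. Spi1 has no row under that symbol but stands in the table under its older symbol Sfpi1, matched by its Ensembl identifier, and is given separately below, outside the counts.

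RNA was sequenced from the nucleus accumbens, a ventral part of the striatum in the reward circuit, of C57BL/6 mice. The cocaine group received 7 daily intraperitoneal injections at 20 mg/kg and the controls received saline, and both belong to a time point 4 h into withdrawal. There were 3 libraries per group, and whether a library stands for 1 animal or for several is not given in the labels. The saline libraries carry the cocaine protocol in their treatment text, so the grouping rests on their treatment label. The authors' deposited table holds 1 FPKM value (fragments per unit of transcript length, scaled to the size of the library) per group and gene. Values of single libraries are not in it, so the spread between libraries cannot be printed beside any value below, and read depth is unknown.

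Microglia are long-lived macrophages of the brain parenchyma. They depend on signalling through the receptor Csf1r and on the transcription factor PU.1, the product of Spi1, and they survey the tissue with processes that follow extracellular nucleotides through P2Y receptors. They also make most of the brain's C1q, the first component of the classical complement cascade, and clear debris through phagocytic receptors that signal by the adaptor Tyrobp. In the striatum they contact spiny neurons and their synapses.

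None of the tested microglia genes passed the authors' test at q < 0.05 (0 higher, 0 lower, 31 not passing), where 1.23% of all tested records passed, 0.521% higher and 0.709% lower. The median log2 fold change of the 31 genes, cocaine over saline, was 0.05 in the authors' deposited table, next to -0.02 for all tested records. Of the 31, 23 lay above 0 and 8 below, or 74.2% above 0 next to 41.0% of all tested records. At an unadjusted p under 0.05 the deposited test held 1 of the 31, P2ry13, which was higher after cocaine, where 5.76% of all tested records passed, 2.02% higher and 3.74% lower. Summed over the 32 rows, the microglia genes came to 393 FPKM with saline and 401 FPKM with cocaine, a difference of 2.07%. The sum over all tested records was 1.51% higher with cocaine, from 553804 to 562174 FPKM. Within it the mitochondrially encoded mRNAs went from 37828 to 46397 FPKM. Among tested records with a mean of 5 to 40 FPKM the summed level differed by -1.32%. That of the 20 microglia genes in this range differed by 1.74%. In bulk tissue, a change in the number of microglia and a change in RNA per cell cannot be told apart.

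The label was checked against markers of related cells. The members P2ry12 (11.6 FPKM in saline), Tmem119 (10.6 FPKM), Cx3cr1 (13.6 FPKM) and Csf1r (29.9 FPKM) were all well above the border macrophage markers Mrc1 (0.243 FPKM) and Lyve1 (0.0461 FPKM). They were also above the blood monocyte receptor Ccr2 (0.0791 FPKM). The border macrophage marker Cd163 stood higher than Mrc1 and Lyve1, at 1.41 FPKM. Of 15 markers of blood monocytes, neutrophils and lymphocytes, 12 were not tested and stood at 0.193 FPKM or less in both groups, and the B cell gene Ms4a1 is listed at 0 in both. Their summed level was 5.61 FPKM in saline and 5.01 FPKM in cocaine, most of it from Ly6c2 (4.17 and 4.06 FPKM). The 8 border macrophage markers summed to 10.8 and 10.1 FPKM, most of it from the scavenger receptor Stab1 (7.53 and 7.39 FPKM). The part of such cells in Csf1r, Cx3cr1 and the shared leukocyte genes among the members, such as Ptprc and Cd53, was not tested.

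**Figure D1:**
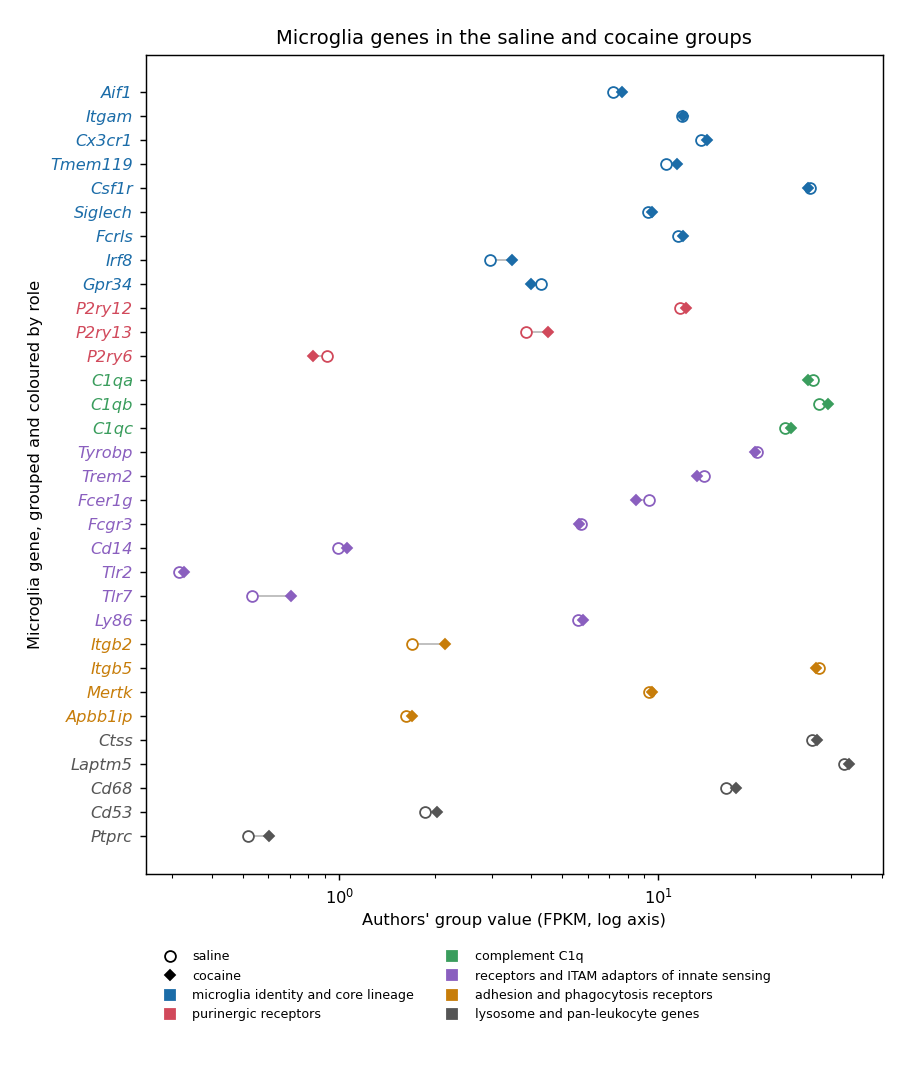
Authors' group values in FPKM on a log axis for the 32 microglia genes found by symbol, with open circles for saline and filled diamonds for cocaine, coloured by role. The pairs lie close together for nearly every gene; Laptm5 is the highest at 38.2 and 39.6 FPKM and Tlr2 the lowest at 0.315 and 0.325 FPKM.

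The genes spanned a wide range of levels. In saline, 15 of the 32 were at 10 FPKM or more, 12 between 1 and 10 FPKM and 5 under 1 FPKM. Ranked by mean FPKM among all tested records, the lowest was at percentile 2.89 and the highest at percentile 84.8, with a median percentile of 52.1. The differences between groups widened toward the low end: 5 genes had an absolute log2 fold change over 0.2, and all 5 had a saline value under 5 FPKM (Tlr7, Itgb2, Irf8, P2ry13 and Ptprc).

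Among the core lineage and surface genes, 7 of the 9 tested had a positive log2 fold change and the median was 0.05 in the authors' deposited table. Csf1r, the receptor for the growth factors Csf1 and Il34, was at 29.9 FPKM in saline and 29.4 FPKM in cocaine (log2 fold change -0.02, the authors' deposited p = 0.599). Cx3cr1, the receptor for the neuronal chemokine Cx3cl1, was at 13.6 and 14.2 FPKM (log2 fold change 0.07, the authors' deposited p = 0.165). The values of this pair lay on either side of 0 and neither passed. Itgam, the integrin alpha chain CD11b, was at 11.9 FPKM in both groups (log2 fold change 0.0016, the authors' deposited p = 0.995). The interval implied for it below is wide. Tmem119, a membrane protein used to tell microglia from blood-derived macrophages, was at 10.6 and 11.4 FPKM (0.11, the authors' deposited p = 0.659). The lectin Siglech stood at 9.30 and 9.54 FPKM and the Fc receptor-like protein Fcrls was at 11.5 FPKM in saline (log2 fold change 0.05). Aif1, the calcium-binding protein Iba1, was at 7.22 and 7.67 FPKM. Tmem119, Siglech, Fcrls and Aif1 were each nominally higher with cocaine and none passed, with p between 0.659 and 0.815 by the authors' deposited test.

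Irf8, a transcription factor of the myeloid lineage that partners PU.1, was at 2.96 FPKM in saline and 3.49 FPKM in cocaine (log2 fold change 0.24 in the authors' deposited table, p = 0.483). The Sfpi1 record, which is Spi1 and encodes PU.1 itself, was at 3.23 and 3.60 FPKM (0.16, the authors' deposited p = 0.715). Both factors stood at a few FPKM and both were nominally higher after cocaine, with neither passing. Gpr34, a receptor for lysophosphatidylserine on the X chromosome, lay on the other side of 0, at 4.29 and 3.98 FPKM (-0.11, the authors' deposited p = 0.338).

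The 3 purinergic receptors differed from each other in level and direction. P2ry12, the ADP receptor that guides microglial processes, was at 11.6 FPKM in saline and 12.2 FPKM in cocaine (log2 fold change 0.06 in the authors' deposited table, p = 0.506). P2ry13, a second ADP receptor, was at 3.85 and 4.52 FPKM (0.23, the authors' deposited p = 0.0338, q = 0.960). It is the gene with the smallest p among the members, a difference of 17.4% that did not pass after adjustment over all tested records. P2ry6, the UDP receptor linked to phagocytosis, was under 1 FPKM at 0.912 and 0.826 FPKM (-0.14, the authors' deposited p = 0.584). P2ry12 was 3.03 times the level of P2ry13 in saline and 2.69 times in cocaine on the FPKM scale. In the GENCODE annotation P2ry12 and P2ry13 are neighbours on chromosome 3, inside Med12l, a gene transcribed from the opposite strand. Exons of P2ry12 share 9 bases with those of Med12l, and those of P2ry13 share none.

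The window upstream of the start of a gene can show what these neighbours share in sequence. The 250 bases before the RefSeq start are printed for both P2Y receptors and for a pair of the C1q genes described next, because PU.1 is the lineage factor of microglia and its classical motif, the PU-box GAGGAA, is present in some members and not in others. Sequences are from RefSeq on GRCm38.p6, on the strand of the gene, which is the minus strand for all of them, and capitals mark the PU-box on either strand (GAGGAA or TTCCTC). The windows are chr3:59210883-59211132 for P2ry13, chr3:59262986-59263235 for P2ry12, chr4:136886201-136886450 for C1qb and chr4:136892915-136893164 for C1qc.
P2ry13: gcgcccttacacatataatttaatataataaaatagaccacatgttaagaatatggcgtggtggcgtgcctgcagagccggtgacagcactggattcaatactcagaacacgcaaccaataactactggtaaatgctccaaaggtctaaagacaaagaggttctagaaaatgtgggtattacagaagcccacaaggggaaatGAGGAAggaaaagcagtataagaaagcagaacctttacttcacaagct
P2ry12: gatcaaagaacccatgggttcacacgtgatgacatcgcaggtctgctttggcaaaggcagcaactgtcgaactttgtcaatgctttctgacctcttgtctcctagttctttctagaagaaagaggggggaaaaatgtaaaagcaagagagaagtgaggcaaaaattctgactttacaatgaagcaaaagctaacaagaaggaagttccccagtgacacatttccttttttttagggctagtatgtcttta
C1qb: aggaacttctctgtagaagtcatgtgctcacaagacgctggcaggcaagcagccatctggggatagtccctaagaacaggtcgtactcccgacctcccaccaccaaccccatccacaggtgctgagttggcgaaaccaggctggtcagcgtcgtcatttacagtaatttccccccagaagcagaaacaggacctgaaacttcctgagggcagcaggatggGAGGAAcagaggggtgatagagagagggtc
C1qc: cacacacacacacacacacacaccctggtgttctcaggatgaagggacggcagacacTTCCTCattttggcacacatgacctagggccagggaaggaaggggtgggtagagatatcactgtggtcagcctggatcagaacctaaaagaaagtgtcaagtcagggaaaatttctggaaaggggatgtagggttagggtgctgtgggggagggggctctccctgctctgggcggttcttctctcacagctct
Counted with the base before the start as -1, the match begins at -48 in P2ry13, at -30 in C1qb and at -193 in C1qc, and P2ry12 has none in its window. Of the 33 members, 23 had a RefSeq window, 26 windows in all. A PU-box was found in 14 of the 26 windows (53.8%), next to 23.3% of all 32851 windows of the same length. By gene it was found in 13 of 23, next to 6986 of all 27025 genes. Both windows of Fcgr3 overlap and hold the same match. The median GC content was 50.4% in the member windows and 52.4% in all windows. A match describes letters in the window and says nothing on occupancy. The PU-box itself did not choose the genes, but they were picked for a cell type whose lineage factor is PU.1. Its share among them is therefore not independent of how the list was picked.

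The 3 genes of the C1q subunits, which lie side by side on chromosome 4, were among the most abundant members. C1qa was at 30.5 FPKM in saline and 29.3 FPKM in cocaine (log2 fold change -0.06 in the authors' deposited table, p = 0.355). C1qb was at 31.9 and 34.0 FPKM (0.09, the authors' deposited p = 0.111), and C1qc at 24.9 and 26.0 FPKM (0.06, p = 0.320). The C1q protein holds the 3 chains in equal number, and their transcripts were within 1.28-fold of each other in saline on the FPKM scale. The ratio of C1qb to C1qa was 1.04 in saline and 1.16 in cocaine, a difference between subunits that has no test in the deposited table. None of the 3 genes passed, and all 3 differed by under 0.1 on the log2 scale.

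Adaptors of innate sensing with an ITAM, an activation motif in their cytoplasmic tail, had log2 fold changes a little below 0, and none passed. Tyrobp, the adaptor DAP12, was at 20.4 FPKM in saline and 20.1 FPKM in cocaine (log2 fold change -0.02 in the authors' deposited table, p = 0.849). Its receptor partner Trem2, a lipid sensor, was at 13.8 and 13.2 FPKM (-0.07, the authors' deposited p = 0.713). Fcer1g, the common gamma chain of Fc receptors, was at 9.31 and 8.53 FPKM (-0.13, the authors' deposited p = 0.464). Tyrobp, Trem2 and Fcer1g make up 3 of the 8 members below 0. Trem2 stood at 0.678 of the level of Tyrobp in saline and 0.656 in cocaine on the FPKM scale. Fcgr3, an activating IgG receptor that signals through Fcer1g, was at 5.72 and 5.62 FPKM and its test was marked as failed, so no difference is given. It lies on chromosome 1, as does Fcer1g.

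The pattern-recognition receptors were scarce. Cd14, the coreceptor for lipopolysaccharide, was at 0.988 FPKM in saline and 1.06 FPKM in cocaine (log2 fold change 0.10 in the authors' deposited table, p = 0.721). Tlr2, a receptor for bacterial lipoproteins, was at 0.315 and 0.325 FPKM (0.05, the authors' deposited p = 0.892). Tlr7, the endosomal receptor for single-stranded RNA, was at 0.533 and 0.705 FPKM (0.40, the authors' deposited p = 0.763), which is the largest log2 fold change of the 31 genes and rests on values under 1 FPKM. With a pseudocount of 1 FPKM it was 0.15. Ly86, the MD-1 protein that accompanies a Toll-like receptor homologue, was higher in level, at 5.59 and 5.78 FPKM (0.05, the authors' deposited p = 0.758).

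Of the adhesion and phagocytosis genes, Itgb2, the beta chain that pairs with Itgam, was at 1.69 FPKM in saline and 2.14 FPKM in cocaine (log2 fold change 0.34 in the authors' deposited table, p = 0.298), and 0.22 with a pseudocount of 1 FPKM. Itgam was 7.02 times as high as Itgb2 in saline and 5.57 times in cocaine on the FPKM scale, although the proteins pair as a heterodimer. Itgb5, an integrin chain that other cells of the tissue also express, was at 31.8 and 31.2 FPKM (-0.03, the authors' deposited p = 0.882). Mertk, a phagocytic receptor that astrocytes also carry, was at 9.33 and 9.53 FPKM (0.03, the authors' deposited p = 0.720), and Apbb1ip, an integrin-activating adaptor, at 1.62 and 1.70 FPKM (0.06, p = 0.703). None of these 4 passed.

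The 5 lysosomal and leukocyte genes were all nominally higher after cocaine, with a median of 0.10 on the log2 scale in the authors' deposited table, and 0 passed. Laptm5, a lysosomal membrane protein of blood-lineage cells, was the most abundant member at 38.2 FPKM in saline and 39.6 FPKM in cocaine (0.05, the authors' deposited p = 0.770). Ctss, the lysosomal protease cathepsin S, was at 30.2 and 31.4 FPKM (0.05, the authors' deposited p = 0.395). Cd68, a lysosomal protein often stained as a sign of phagocytic activity, was at 16.3 and 17.5 FPKM (0.10, the authors' deposited p = 0.536). The remaining leukocyte genes were lower in level: the tetraspanin Cd53 at 1.85 and 2.02 FPKM (0.13, the authors' deposited p = 0.419) and Ptprc, the phosphatase CD45, at 0.517 and 0.602 FPKM (0.22, p = 0.494).

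**Figure D2:**
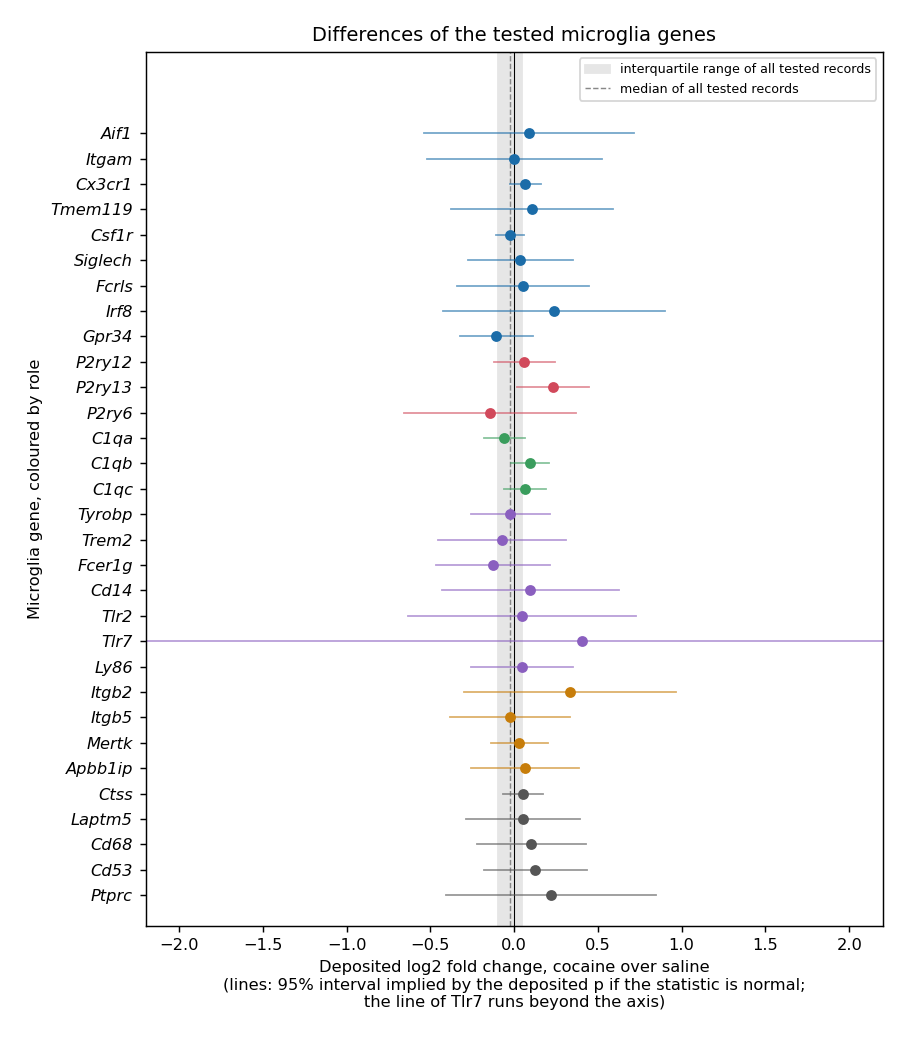
Deposited log2 fold change (cocaine over saline) of the 31 tested microglia genes as points, coloured by role, with lines for the 95% interval that each deposited p would give if the test statistic were normal. The grey band is the interquartile range of all 14959 tested records and the dashed line their median of -0.02; 23 points lie above 0, and the line of P2ry13 alone leaves out 0.

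How large a difference the authors' test could have shown varied between the genes. If the test statistic were normal, which the table does not state, each deposited p and log2 fold change imply a 95% interval, and its half-width ran from 0.0838 to 2.62 on the log2 scale with a median of 0.327 over the 31 genes. The interval was -0.11 to 0.06 for Csf1r, -0.03 to 0.16 for Cx3cr1 and -0.12 to 0.24 for P2ry12. For 6 of the 31 genes the whole interval lay within 0.2 of 0, while for 10 it reached 0.5 or more in at least 1 direction. Among these 10 were Tmem119 (-0.37 to 0.59), Aif1 (-0.54 to 0.71), Itgam (-0.52 to 0.53) and Tlr7 (-2.22 to 3.02). For Aif1 and Itgam a difference of 0.5 in either direction is therefore not shown to be absent. Nor is a rise of 0.5 for Tmem119. Among all 7159 tested records with a mean of 5 to 40 FPKM, 69 passed q < 0.05, with absolute log2 fold changes of 0.09 at the least and 0.18 at the median. The 20 microglia genes in that band reached 0.13 at most, and 16 of them lay under the smallest difference that passed. The standard error implied in the same way, under the same assumption, was 0.158 at the median for these 20 genes. It was 0.112 for all records of the band, a difference that was not tested.

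**Figure D3:**
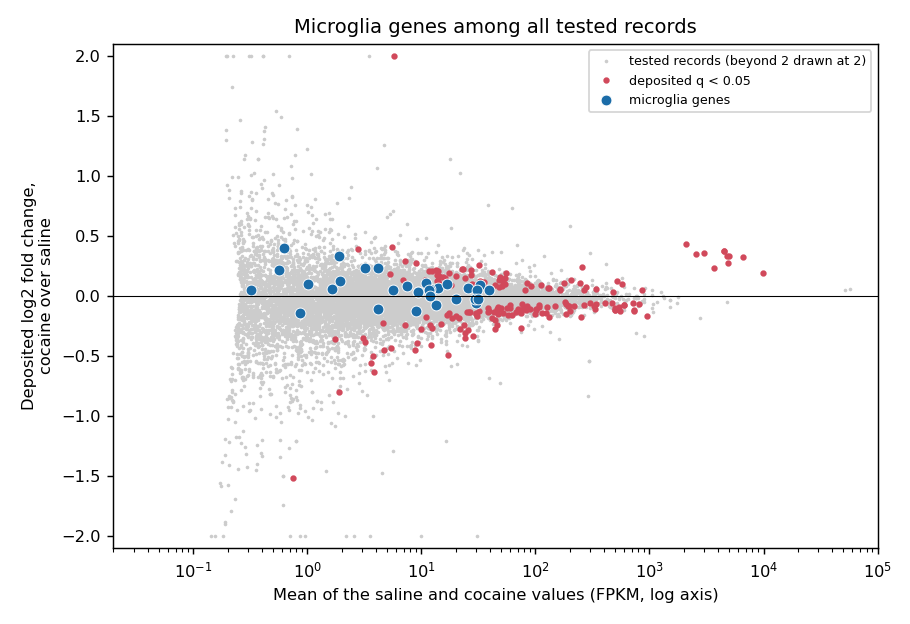
Deposited log2 fold change against the mean of both group values in FPKM (log axis) for all tested records in grey, with records of deposited q < 0.05 in red and the 31 tested microglia genes in blue. The microglia genes lie inside the grey cloud at every level, and none is among the red points.

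Other gene lists of the same cells and their surroundings were read in the same table. A further 28 microglia genes gave 27 tested, 0 passing in either direction (0 also at an unadjusted p under 0.05), 14 above 0, 13 below and a median of 0.0023 on the log2 scale by the authors' deposited values. The transcription factor Sall1, which maintains microglial identity, was at 4.64 and 4.52 FPKM. The median of this second list lay closer to 0 than that of the 31 members. It is the value of Mef2a (46.8 FPKM in both groups), and the most abundant gene of the list was Sparc (113 and 108 FPKM). How much of the RNA of these genes comes from microglia was not tested, so the list is not a second measure of these cells alone. Of 11 genes for ligands and signals that microglial receptors read, 0 passed by the authors' deposited test (0 also at an unadjusted p under 0.05) and 10 lay below 0, with a median of -0.03. Of the 11, 1 lay above 0, next to 41.0% of all tested records. Above the median of all records of at least 1 FPKM (-0.02) lay 4 of the 11, next to 6488 of those 12984 records. Cx3cl1, the ligand of Cx3cr1, was at 287 FPKM in saline and 283 FPKM in cocaine, and Il34, the main Csf1r ligand of forebrain neurons, at 37.6 and 34.3 FPKM (-0.14, the authors' deposited p = 0.110). Csf1, its other ligand, was at 2.74 and 2.56 FPKM, and Cd200, a neuronal membrane protein that restrains microglia, at 82.9 and 67.4 FPKM (-0.30, the authors' deposited p = 0.120).

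Many genes of inflammatory activation had very low values. Of 25, 12 were not tested and stood at 0.258 FPKM or less in both groups, among them Tnf (0.0330 and 0.0064 FPKM), Il1b (0.0148 and 0.0657 FPKM) and Il6 (0.0131 FPKM in saline and listed at 0 in cocaine). Of the 13 tested, 0 passed in the authors' deposited table (0 also at an unadjusted p under 0.05) and 8 lay below 0, with a median log2 fold change of -0.04. The inhibitor Nfkbia, itself a target of NF-kappaB, was at 7.55 and 6.60 FPKM (-0.19, the authors' deposited p = 0.0584). Of 17 genes of disease-associated microglia, 13 were tested, 0 passed and 9 lay below 0. Of all 14959 tested records, 8817 lay below 0. How much of the RNA of the disease-associated list, such as that of Apoe (1777 and 1764 FPKM), comes from microglia was not tested. The genes Cst7, Itgax and Clec7a were not tested and stood at 0.101, 0.0465 and 0.0862 FPKM in cocaine, and the test of the phagocytic receptor Axl (23.5 and 28.8 FPKM) was marked as failed. Timp2, a secreted inhibitor of metalloproteinases, was the only one at an unadjusted p under 0.05 (108 and 99.5 FPKM, log2 fold change -0.12, the authors' deposited p = 0.0061, q = 0.331). Of 12 complement genes beyond C1q, 8 were tested, 0 passed in the authors' deposited table (0 also at an unadjusted p under 0.05) and 4 lay above 0. C1s, a protease of the C1 complex, had the largest difference of this list, at 1.35 and 0.0711 FPKM (log2 fold change -4.25, and -1.13 with a pseudocount of 1 FPKM; the authors' deposited p = 0.398). C4b was at 5.27 and 5.11 FPKM, and C3 was not tested, at 0.131 and 0.0721 FPKM.

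**Figure D4:**
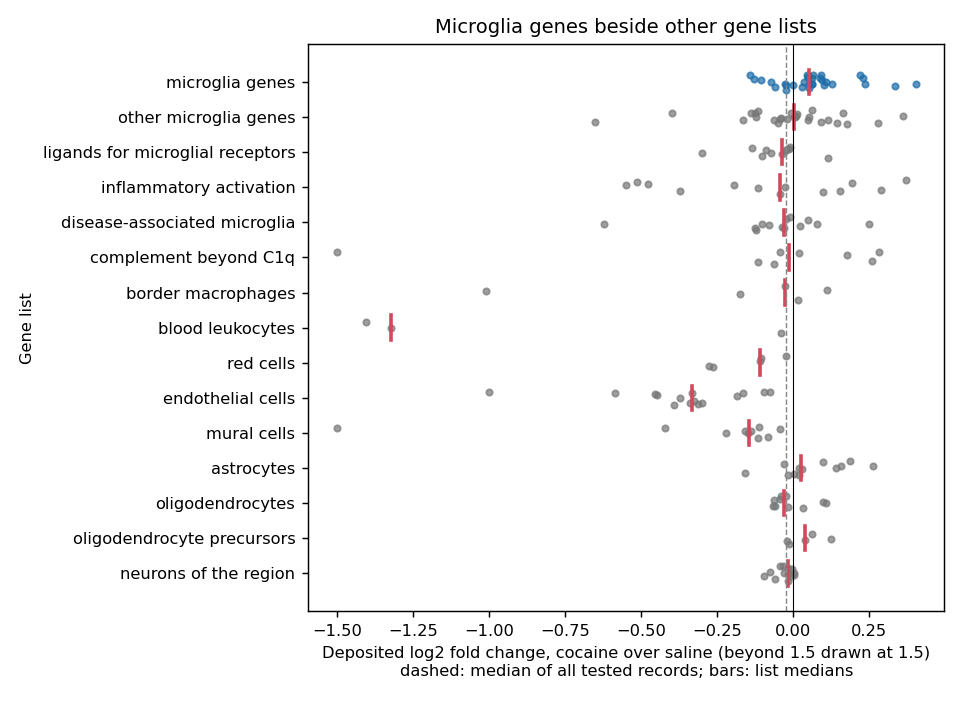
Deposited log2 fold change of each tested gene in the microglia list (blue) and in 14 other gene lists (grey), with red bars for list medians and a dashed line for the median of all tested records. The microglia median is 0.05, and every tested endothelial and mural marker lies below 0. The choroid plexus and mitochondrially encoded lists are not drawn.

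Markers of other cells were read from the same group values. All 15 endothelial markers lay below 0 in the authors' deposited table, with a median log2 fold change of -0.33 and a summed level of 94.9 FPKM in saline and 78.1 FPKM in cocaine. All 10 mural markers also lay below 0 (median -0.14, sums 60.3 and 53.0 FPKM), and so did the 5 red cell genes found (median -0.11, sums 301 and 261 FPKM). By the authors' deposited test 1 endothelial gene passed, the tight junction gene Cldn5 (q = 0.0012; 4 lower at an unadjusted p under 0.05), 0 mural genes passed (1 lower at an unadjusted p under 0.05), and 1 red cell gene passed, the alpha globin Hba-a2 (q = 0.0335; 2 lower at an unadjusted p under 0.05), whose reads could be shared with its near-identical copy Hba-a1. Astrocyte markers had a median of 0.03 with 9 of 12 above 0, oligodendrocyte markers -0.03 with 3 of 10 above 0, markers of oligodendrocyte precursors and their lineage (Pdgfra, Olig1, Olig2, Sox10 and Gpr17) 0.04 with 3 of 5 above 0, and markers of the region's neurons -0.02 with 2 of 13 above 0. Counted above the median of all records of at least 1 FPKM (-0.02) instead, they were 10 of 12, 4 of 10, 5 of 5 and 7 of 13, and after removal of the trend with GC and length described below the medians were 0.07, 0.0033, 0.07 and 0.0009. In all, 0 of these 4 lists' genes passed the authors' deposited test (at an unadjusted p under 0.05 there were 3 higher and 1 lower of astrocytes, 2 higher of oligodendrocytes and 3 lower of neurons). The border macrophage list had 5 tested genes with a median of -0.03, the blood leukocyte list 3 with a median of -1.32, at values mostly under 1 FPKM, and 0 of either passed (0 also at an unadjusted p under 0.05). In the choroid plexus list Ttr passed and was higher, at 0.668 FPKM in saline and 10.8 FPKM in cocaine (log2 fold change 4.02 in the authors' deposited table). The other 4 tested genes of that list did not pass. Kcnj13 (0.0658 and 0.581 FPKM) and Folr1 (0.234 and 0.618 FPKM) were nominally higher, and Kl and Clic6 nominally lower. All 9 of 9 tested mitochondrially encoded mRNAs passed and were higher, with a median of 0.33. The microglial median and the medians of vessel and red cell markers lay on opposite sides of 0 in the same group values, a difference between lists that was not tested. The part of tissue composition in the microglial values was not tested either.

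Transcript composition moved with the fold change over the whole table. Across 12639 tested records of at least 1 FPKM with a matched transcript, the log2 fold change had a Spearman's rho of -0.30 against GC and of 0.18 against transcript length, as a description across genes that share the same libraries. The longest transcripts of the 31 microglia genes had 51.0% GC and 2344 bases at the median, next to 49.9% and 3330 bases for all tested records. With the median of each GC and length class subtracted, the median log2 fold change of the 31 genes was 0.08 and 4 lay below 0 instead of 8. The same subtraction brings the median of all tested records to 0, from -0.02 as deposited. Csf1r, C1qa, Tyrobp and Itgb5 were the genes that crossed 0, each with an absolute value under 0.03 after subtraction. In the GENCODE annotation, which is of a later build than the authors', exons of Csf1r share 873 bases, 15.1% of its exonic bases, with Hmgxb3 on the opposite strand, and those of Itgam share 68.7% with the overlapping gene model Gm49368 on the same strand. Whether the counting used strand is not given, so part of the reads of Csf1r could belong to Hmgxb3 and its value is uncertain. Gm49368 has no row in the authors' deposited table.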

How the data were processed

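RNA sequencing libraries of nucleus accumbens, 3 per group, were summarised by the authors into a single table. TopHat2 2.0.6, Cufflinks 2.0.2 and the build NCBIM37 are named in the submitters' processing notes; settings, annotation and strand: not given in the sources used here. The values were taken as FPKM, since the deposited table has the layout of a Cuffdiff gene table; per the file headers the first group is saline and the second cocaine. Each record's p-value and q-value were copied as the authors deposited them; how their test estimated spread between libraries is not given, and that spread may be technical. The log2 fold change was deposited by the authors. Read depth is unknown, so no counting interval was computed.

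Only tested records entered counts of calls and medians, while sums and levels of a list include its untested rows. A gene was called at q < 0.05 over all tested records. For a symbol with several records the one with the highest mean FPKM was used. By rule all members are named, and of other lists the genes that passed and up to 3 of the highest mean FPKM; mitochondrial mRNAs are given as a count, and other names were chosen after their values were seen. The members and the 16 other lists were chosen with earlier results of these data known, so lists are described by counts and medians only. Transcript GC and length were those of the longest GENCODE transcript (mouse release 21, joined on the Ensembl identifier), and the median of each of 10 by 10 GC and length classes was subtracted. Implied intervals at 95% divide the log2 fold change by the normal quantile of the deposited p. Promoter windows were from RefSeq on GRCm38.p6. Adjustment and trend removal were tested on simulated data. Python 3.11.15, numpy 2.4.6, pandas 2.3.3 and scipy 1.17.1 were used.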

Additional observations from a re-analysis of the deposited data

How the results depend on the processing

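The table holds group values only, so no library could be left out and the effect of any single library is unknown. No paired analysis was possible because the deposited table has no value per library. The count of microglia genes passing was 0 at q < 0.05, q < 0.01 and q < 0.10, with the p-values adjusted again over records of at least 1 FPKM, and with Sfpi1 added; at an unadjusted p under 0.05 it was 1. The median log2 fold change was 0.05 as deposited and from 0.05 to 0.08 under minimums of 1 and 5 FPKM, pseudocounts of 1 and 0.1 FPKM, rescaling without the mitochondrially encoded records, centring on all records of at least 1 FPKM, Sfpi1 added and trend removal. No symbol among the members had more than 1 record. Members below 0 numbered 8 as deposited, 7 at 1 FPKM or more, 8 after centring, rescaling or with Sfpi1, and 4 once the trend with GC and length was removed, an alternative chosen after seeing the data, as was the addition of Sfpi1. Centring and trend removal bring the median of the records used to 0, from -0.02 as deposited. The share of all records below 0 therefore differs there too. The sign changed for 4 of 31 genes with that trend removed and for 0 with a pseudocount of 1 FPKM or after rescaling. Without depth, values under 1 FPKM cannot be given a detection floor.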
